A study of Rattus norvegicus with 6 samples.

Results

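The spindle assembly checkpoint was followed through 9 genes, *Bub1*, *Bub1b*, *Bub3*, *Mad1l1*, *Mad2l1*, *Mad2l2*, *Mad2l1bp*, *Ttk* and *Trip13*, chosen by the gene name that the array files give each spot. They were read by 13 probes on 23 spots, out of 45598 probes with 36174 gene names on 58717 spots. Islets of young adult male Wistar rats, pooled from 4 rats in each of 3 preparations, were cultured overnight with EdU, a thymidine analogue that is built into newly made DNA, and were then dispersed. The cells were labelled with the zinc dye Newport Green, fixed with paraformaldehyde, permeabilized and stained for EdU by a Click reaction. β-cells were then gated by size, granularity and dye signal. They were sorted into EdU-positive cells, called replicating, and EdU-negative cells, called quiescent. The paper reports that fixation and permeabilization lowered the dye signal and the size of the cells. Each preparation gave 1 replicating and 1 quiescent sample, so that both groups shared the rats, the EdU exposure, the fixation and the Click staining. They differed in yield, since the paper collected far fewer replicating than quiescent cells per pancreas and extracted less RNA from the replicating fraction. It does not say whether the RNA input to amplification was matched for the arrays, and the part of input in the ratios was not tested. EdU marks cells that made DNA during the labelling, so the replicating fraction is not a sort for mitosis. The amplified RNA of each sample was labelled with the dye Cy3 and read on 1 Agilent rat array, whose probes are 60 bases long. Expression is given as the log2 values that the authors deposited after background correction and quantile normalization, and every log2 ratio is that of replicating to quiescent samples, so that a ratio of 1 is a doubling.

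The spindle assembly checkpoint delays anaphase until every chromosome is attached to spindle microtubules. Ttk (also called Mps1) and Bub1 are kinases that act at unattached kinetochores, where Bub3 brings Bub1 and BubR1 (the product of *Bub1b*) to the platform protein Knl1. Mad1 (*Mad1l1*) and Mad2 (*Mad2l1*) form the template on which more Mad2 is turned into its closed form, and closed Mad2, BubR1, Bub3 and Cdc20 make up the mitotic checkpoint complex, which inhibits the anaphase-promoting complex (APC/C). Trip13, an ATPase, and its adaptor p31comet (*Mad2l1bp*) open Mad2 again and so take the complex apart. Mad2l2 carries the same protein fold as Mad2 but is best known for its part in translesion DNA synthesis and in the choice of DNA repair pathway. Many of these genes are transcribed mainly in G2 and mitosis in cycling cells, and adult β-cells seldom divide.

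The arrays of the 2 groups were not equally uniform. Between 80.8% and 98.4% of probes were well above background on each array, and no spot was saturated. Across all probes, which are not independent replicates, Pearson's r between replicating arrays was 0.967 to 0.986, whereas the quiescent array of preparation 2 had an r of 0.654 with that of preparation 3 and held 1583 outlier spots against 252 to 299 on the other arrays. The quiescent array of preparation 3 was closer to the replicating arrays (r of 0.943 to 0.969) than to the quiescent arrays of preparations 1 and 2 (0.867 and 0.654). The cell-cycle markers *Mki67*, *Top2a*, *Pcna* and *Ccna2* were higher in the replicating samples, 4 of 4 called by the rule given next. The groups nearly met for *Mki67*, with a highest quiescent value of 12.23 (preparation 2) and a lowest replicating value of 12.28. The same held for *Pcna*, at 10.58 (preparation 3) and 10.68. They were further apart for *Top2a* (7.19 and 10.42) and *Ccna2* (7.82 and 9.44). The 9 of 9 β-cell markers were well above background on all 6 arrays. Markers of other cell types also moved with the sort. Of 6 fibroblast and stellate cell markers 6 were higher and 2 were called (*Col1a2* and *Col3a1*), with a summed signal of 11800 to 35400 against 3680 to 5480, and of 5 alpha cell markers 4 were higher and 2 were called, with a summed signal of 21900 to 89000 against 5560 to 16600. Of 4 immune markers 4 were higher and 1 was called, with sums of 3170 to 4850 against 1780 to 4600, and no marker of these 3 lists was below background on every array. Of 2 delta cell markers 2 were higher and 1 was called (*Sst*), and *Ppy* was called higher as well. Of 5 acinar markers 4 were higher and 1 was called (*Prss1*), with a median log2 ratio of 0.24. Their summed signal was 7120 to 79600 against 2990 to 40200 and differed between preparations. *Amy2a3* read 9.19, 13.47 and 12.44 in the replicating samples of preparations 1, 2 and 3 and 8.91, 13.01 and 12.47 in the quiescent samples. Of 9 β-cell markers 3 were higher, 0 were called higher and 1 was called lower (*Mafa*), with a median of -0.56. None of the duct and endothelial markers was called. The part of these cells in the checkpoint ratios was not tested, and in bulk samples fewer cells of a type and less RNA per cell cannot be told apart.

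Of the 9 checkpoint genes 5 rose in the replicating β-cells, *Bub1*, *Ttk*, *Trip13*, *Bub1b* and *Mad1l1*. The fold changes of these genes were 26.4, 7.31, 2.74, 2.57 and 2.24. No checkpoint gene fell. *Mad2l1* was read differently by its 3 probes, 1 of which rose, and *Bub3*, *Mad2l1bp* and *Mad2l2* did not pass the test. A gene was said to have risen when limma, fitted with a block for the preparation, gave a log2 ratio of at least 1 with an unadjusted p of 0.05 or less, which is the study's threshold. Where several probes read a gene, the brightest over the 6 arrays stood for it. This rule called 5 of 9 checkpoint genes and 6 of their 13 probes higher, against 4.44% of all probes, and 0 lower, against 4.18%. In 6 of 9 genes the ratio was above 0 in all 3 preparations, against 15.7% of the probes measured on every array, and in 6 of 9 every replicating array read above every quiescent array, against 9.01%. The 9 genes had a median log2 ratio of 1.36 (1.13, 1.40 and 1.04 for the single preparations), beside -0.07 over all probes. No checkpoint gene had an adjusted p under 0.05 (Benjamini-Hochberg over all probes in limma), nor did any other probe (0% of 45598, with 9.6% at an unadjusted p of 0.05 or less), and the smallest adjusted p, 0.0977, was shared by *Bub1*. With 3 preparations an exact paired permutation test cannot give a p below 0.25, so none was run on single genes.

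**Figure D1:**
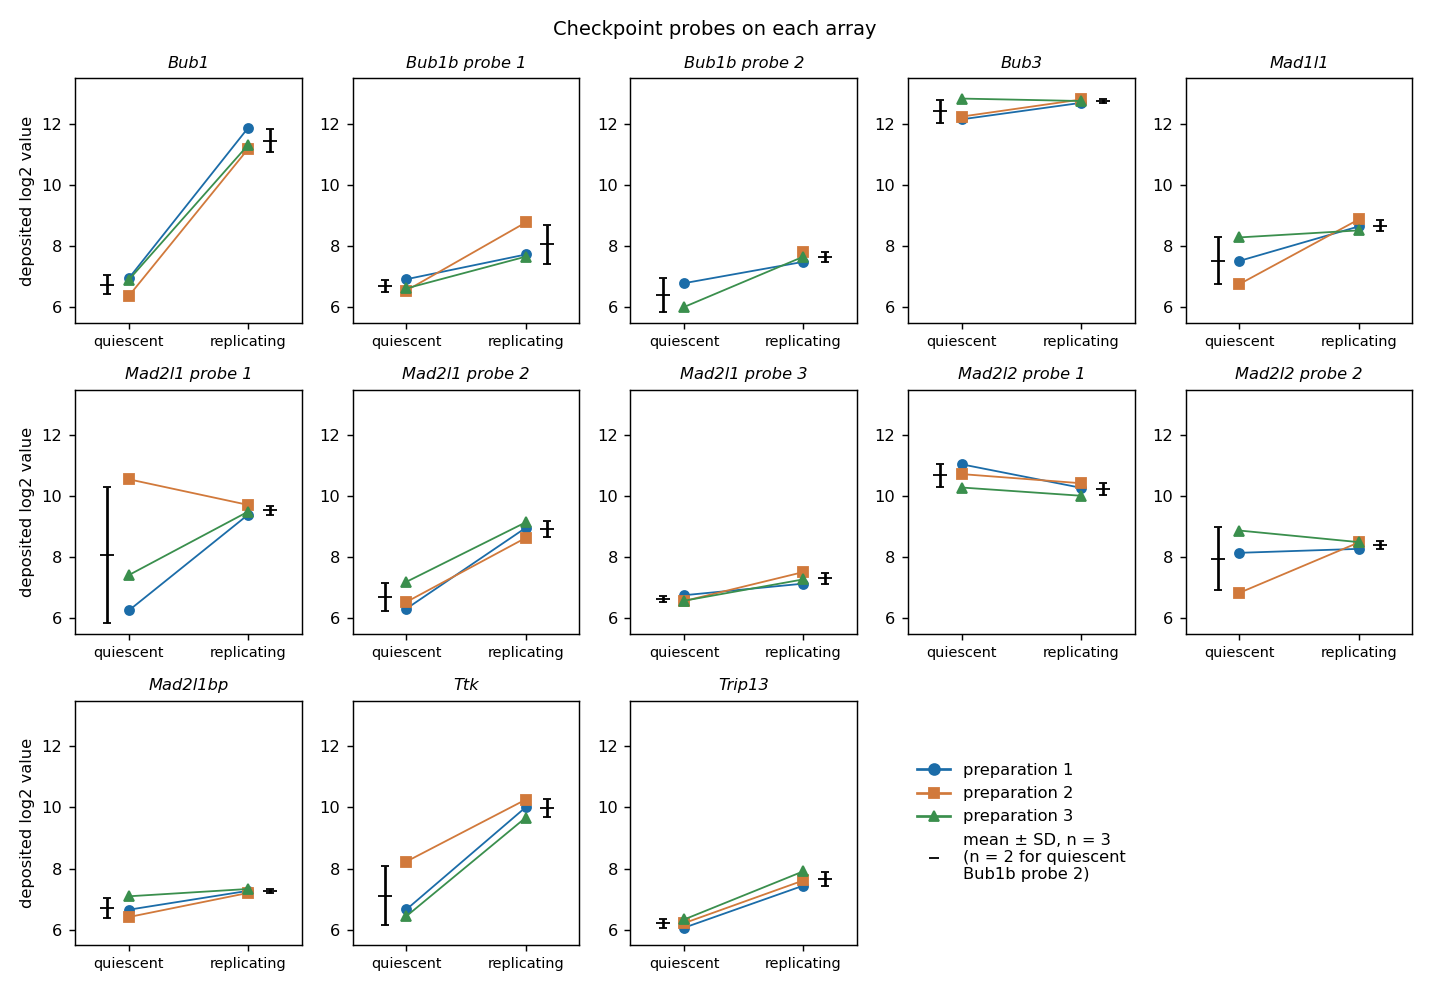
Deposited log2 values of the 13 checkpoint probes on each of the 6 arrays (vertical axis, log2 units), with replicating and quiescent samples side by side, lines joining the samples of 1 preparation and bars for the mean ± SD (n = 3 in each group, n = 2 for the quiescent samples of probe 2 of *Bub1b*). *Bub1* and *Ttk* have the largest differences between the group means, and the quiescent sample of preparation 2 lies above all other samples at probe 1 of *Mad2l1*.

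The kinases had the largest changes. *Bub1*, which lies on chromosome 3 (probe at 115324612 to 115324671, minus strand, build rn4), read 11.88, 11.19 and 11.32 in the replicating samples of preparations 1, 2 and 3 and 6.95, 6.37 and 6.90 in the quiescent samples. The groups were far apart and the 3 preparations gave nearly the same ratio, 4.93, 4.81 and 4.42. The means were 11.46 ± 0.37 and 6.74 ± 0.32 (SD, n = 3), and the fitted log2 ratio was 4.72 (standard error 0.32, 95% confidence interval 3.92 to 5.53, unadjusted p = 1.9e-05). Of all 45598 probes this was the 12th largest ratio and the 4th smallest p. *Ttk*, on chromosome 8 (88944281 to 88944340), read 10.01, 10.26 and 9.67 in the replicating samples and 6.66, 8.23 and 6.44 in the quiescent samples. Every replicating sample of *Ttk* lay above every quiescent one, although the quiescent sample of preparation 2 was the highest of its group and 1 of the 3 quiescent arrays was not well above background. The ratios in the preparations were 3.35, 2.03 and 3.23, and the fit gave 2.87 (standard error 0.40, 95% confidence interval 1.85 to 3.89, unadjusted p = 0.000721). *Bub1* and *Ttk* were also the only 2 of the 9 genes past an unadjusted p of 0.001 and a fold change of 2, a rule that 0.373% of all probes met in the higher direction.

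*Bub1b* had a smaller ratio than its paralogue *Bub1* in every preparation. Its brighter probe (probe 1), on chromosome 3 (105115671 to 105115730), read 7.73, 8.78 and 7.66 in the replicating samples and 6.92, 6.55 and 6.62 in the quiescent samples. The groups did not overlap, and preparation 2 gave the largest of the 3 ratios, 0.81, 2.23 and 1.04. The fitted log2 ratio was 1.36 (standard error 0.41, 95% confidence interval 0.32 to 2.40, unadjusted p = 0.0197). Its probe 2 (105116782 to 105116841) read 7.49, 7.81 and 7.66 against 6.79 and 6.01, with the spot on the quiescent array of preparation 2 marked as an outlier and left out of the fit. Its ratio of 1.18 (95% confidence interval -0.12 to 2.47, unadjusted p = 0.0653) was close to that of probe 1 but did not pass. The ratio of *Bub1* exceeded that of *Bub1b* by 4.12, 2.58 and 3.38 log2 units in the 3 preparations, and it exceeded that of each of the 8 other checkpoint genes in all 3 preparations. The call of *Bub1b* was lost without preparation 1 and without preparation 2, with ratios of 1.64 and 0.93.

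*Bub3*, whose product binds both Bub1 and BubR1, did not pass the test. Its probe, printed on 10 spots (chromosome 1, 191139310 to 191139369), read 12.70, 12.81 and 12.76 in the replicating samples and 12.16, 12.25 and 12.84 in the quiescent samples. The quiescent sample of preparation 3 was the highest of the 6, so the groups overlapped. The fitted log2 ratio was 0.34 (standard error 0.33, 95% confidence interval -0.50 to 1.17, unadjusted p = 0.352), an interval that includes a doubling. The ratio of *Bub1* exceeded that of *Bub3* by 4.39, 4.26 and 4.51 in the 3 preparations.

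*Mad1l1*, the kinetochore anchor of Mad2, rose at the edge of the rule. Its probe (chromosome 12, 15107408 to 15107467) read 8.65, 8.88 and 8.52 in the replicating samples and 7.52, 6.76 and 8.29 in the quiescent samples. The replicating samples lay close together and above all quiescent samples, but the gap in preparation 3 was small, with ratios of 1.13, 2.12 and 0.23. The fitted log2 ratio was 1.16 (standard error 0.45, 95% confidence interval 0.01 to 2.32, unadjusted p = 0.0493). Without preparation 1 or preparation 2 it was no longer called, at 1.18 and 0.68.

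*Mad2l1*, the checkpoint effector that binds Cdc20, was read by 3 probes on chromosome 4 that gave different answers. The array annotation assigns each of these probes to a different transcript, so they need not read the same RNA. The first 30 of their 60 bases are given because the probes of this gene gave different ratios, and they are ordered by position (probe 1 at 96385766 to 96385825, probe 2 at 96386480 to 96386539, probe 3 at 96392042 to 96392101, build rn4).
*Mad2l1* probe 1: gaaggaacccaagaaatacaacaataagac
*Mad2l1* probe 2: tgtcctttgaaattcagataatatcgtgtt
*Mad2l1* probe 3: gaaaaccaggcacaattctatgtctggtcc
Probe 1, the brightest and therefore the one that stands for the gene, read 9.40, 9.72 and 9.50 in the replicating samples and 6.26, 10.56 and 7.42 in the quiescent samples. The quiescent sample of preparation 2 was the highest of all 6, which turned the ratio of that preparation to -0.83 beside 3.15 and 2.07 in the others. The fit gave 1.46 (standard error 0.80, 95% confidence interval -0.58 to 3.50, unadjusted p = 0.126), and without preparation 2 it gave 2.61 and the probe was called, beside 2.30 for probe 2. Probe 2 read 8.97, 8.64 and 9.15 against 6.32, 6.54 and 7.20. There the quiescent sample of preparation 2 lay within its group, the groups did not overlap, and the ratios were 2.65, 2.10 and 1.96. The fitted log2 ratio was 2.24, a 4.71-fold change (standard error 0.33, 95% confidence interval 1.40 to 3.07, unadjusted p = 0.000933), and the probe was called under each of the 13 alternatives run on single probes, with ratios of 1.91 to 3.26. Probe 3 read 7.14, 7.52 and 7.28 against 6.76, 6.57 and 6.58. It too separated the groups, but its ratio was 0.67 (standard error 0.32, 95% confidence interval -0.14 to 1.49, unadjusted p = 0.0865) and it was not called. When a gene was read by the median of its probes in place of the brightest, *Mad2l1* joined the genes called.

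*Trip13* and *Mad2l1bp*, which act together to disassemble the checkpoint complex, were both higher in every preparation, but *Trip13* passed the rule and *Mad2l1bp* did not. *Trip13* (chromosome 1, 30179033 to 30181284, a span of 2252 bases for a probe of 60 bases) read 7.44, 7.61 and 7.91 in the replicating samples and 6.06, 6.21 and 6.33 in the quiescent samples. The groups were well separated and the ratios were nearly equal, at 1.39, 1.40 and 1.58. The fit gave 1.46 (standard error 0.30, 95% confidence interval 0.68 to 2.23, unadjusted p = 0.00454), and its quiescent level rests mostly on dim spots, since only 1 of the 3 quiescent arrays read it well above background. *Mad2l1bp* (chromosome 9, 10400830 to 10400889) read 7.27, 7.20 and 7.33 against 6.65, 6.41 and 7.09. The lowest replicating sample lay just above the highest quiescent sample, and the ratio was 0.55 (standard error 0.32, 95% confidence interval -0.26 to 1.36, unadjusted p = 0.141). The ratio of *Trip13* exceeded that of *Mad2l1bp* by 0.77, 0.61 and 1.33 in the 3 preparations, a difference given without a test.

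*Mad2l2*, the family member that works mainly in DNA repair, was the only checkpoint gene whose brightest probe read lower in replicating β-cells in all 3 preparations, without passing the test. The array annotation assigns its probes to different transcripts as well. These probes lie on chromosome 5 and are shown for the same reason as those of *Mad2l1* (probe 1 at 165220762 to 165221464, probe 2 at 165222389 to 165222536, build rn4).
*Mad2l2* probe 1: agtttgtctttgagatcactcagccaccct
*Mad2l2* probe 2: aaagatgcaactttacgtagaagagcgagc
Probe 1 read 10.28, 10.43 and 10.02 in the replicating samples and 11.05, 10.73 and 10.29 in the quiescent samples. The groups overlapped, and the ratio was -0.45 (standard error 0.32, 95% confidence interval -1.26 to 0.36, unadjusted p = 0.215). Probe 2 read 8.28, 8.49 and 8.50 against 8.15, 6.84 and 8.88, again with overlap. Its ratio of 0.47 (95% confidence interval -0.77 to 1.70, unadjusted p = 0.379) rested on preparation 2, and without that preparation it was -0.12.

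**Figure D2:**
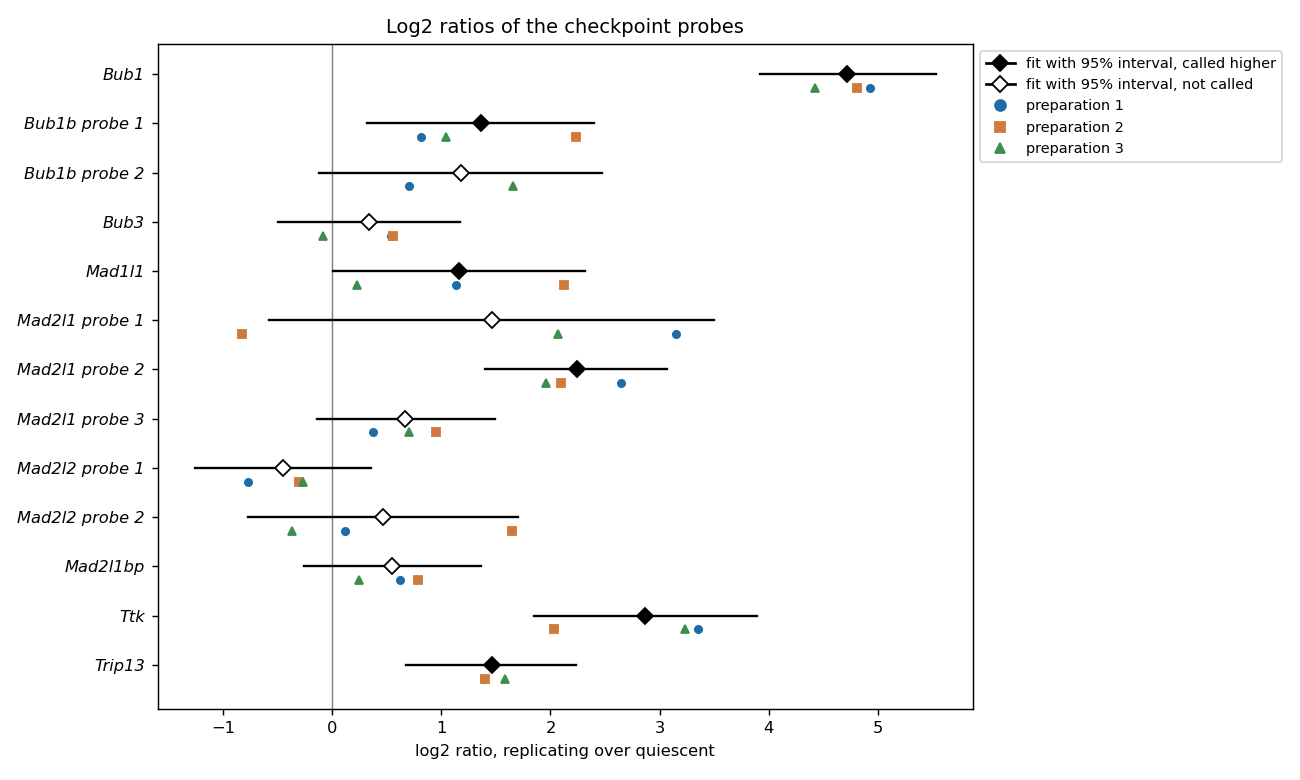
Log2 ratio of replicating over quiescent samples (horizontal axis, log2 units) for each checkpoint probe, with the fitted ratio and its 95% confidence interval as a diamond and bar and the 3 preparations as points. Filled diamonds mark the 6 probes called higher, and *Bub1* at 4.72 lies beyond the intervals of all other probes.

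The replicating samples lay close together for these genes. Over the 12 checkpoint probes measured on every array, the median SD was 0.20 log2 units between replicating samples and 0.37 between quiescent samples. The SD was larger among the quiescent samples in 66.7% of the checkpoint probes, against 85.8% of all probes, for which the median SDs were 0.22 and 0.65. Probe 1 of *Mad2l1* had the widest spread of the 13, with a quiescent SD of 2.22.

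Genes were ranked by the mean absolute difference of their 3 per-preparation log2 ratios from those of *Bub1*, over 17606 genes. The 10 closest were *Spag5* (0.19), *Kif22* (0.20), *Kif20b* (0.23), *Ncaph* (0.29), *Pttg1* (0.33), *Cenpm* (0.47), *Kif18b* (0.49), *Cdca3* (0.50), *Cep55* (0.51) and *Cenpw* (0.55). Among the checkpoint genes *Ttk* was the nearest to *Bub1*, with a mean difference of 1.85 and 81 genes closer, and *Mad2l1*, *Trip13* and *Bub1b* followed with 747, 759 and 955 genes closer. *Mad2l2* was the farthest, at 5.17 with 12994 genes closer. These distances cover 3 preparations and are a description. Each other checkpoint gene had a smaller ratio than *Bub1* in all 3 preparations, so its distance is the difference between the mean ratios. For these genes the order is one of ratio size and does not show that a gene followed *Bub1* across preparations.

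The checkpoint acts on a wider machinery, for which a list of 59 genes was written by role, and 54 of these were on the array. In replicating β-cells 22 of the 54 rose, against 4.44% of all probes called higher, and 0 fell, against 4.18% called lower. The median log2 ratio was 1.12 (1.19, 1.73 and 0.42 in preparations 1, 2 and 3). In 28 of 54 every replicating array read above every quiescent one, against 9.01% of the probes measured on every array. The 54 include *Spdl1* and *Sgo2*, which had no value on the quiescent array of preparation 2 and could not be scored for this. None of them had an adjusted p under 0.05 in limma. The counts by role that follow are to be read against the same 4.44%, and differences between roles were not tested.

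The kinetochore platform, on which Bub1, BubR1 and Mad1 are assembled, rose in 6 of its 9 measured genes, with a median ratio of 2.25. *Ndc80*, a microtubule-binding subunit, read 13.24, 13.41 and 13.02 in the replicating samples and 7.92, 6.90 and 8.06 in the quiescent samples. Its ratio of 5.60 (standard error 0.42) was the largest of the wider list, and within the platform its partner *Spc25* at 5.11 and the Mis12 complex subunit *Nsl1* at 4.61 came next. *Nuf2* (2.67), *Dsn1* (2.25) and *Knl1* (1.47), the docking protein of Bub3, also rose. *Knl1* lost its call with Feature Extraction's processed signal scaled to the 75th percentile and with array weights. *Nsl1* was called at only 1 of its 2 probes. *Mis12* was also called at 1 of its 2 probes, but its brightest probe read 0.66 and was not called. The Rod, Zw10 and Zwilch complex with its partner Spindly brings dynein and Mad1 to kinetochores, and 3 of its 4 genes rose. These were *Spdl1* (3.39), *Kntc1* (2.68) and *Zwilch* (2.47), while *Zw10* read 0.61 and was not called. *Spdl1* had no value on the quiescent array of preparation 2 and lost its call without preparation 1, and only 1 quiescent array read *Kntc1* well above background.

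Among the kinases, chromosomal passengers and shugoshins, 8 of 9 genes rose, with a median ratio of 2.98. The mitotic kinases *Plk1* (5.12) and *Cdk1* (4.38) had the largest ratios, and *Aurkb* (2.90), *Incenp* (2.72) and *Cdca8* (3.21), 3 members of the chromosomal passenger complex that corrects faulty attachments, rose as well. The histone kinase *Haspin* (2.98) and the cohesin protectors *Sgo1* (1.29) and *Sgo2* completed the group. *Sgo2* had no value on the quiescent array of preparation 2 and ratios of 2.93 and 3.26 in the other preparations. *Sgo1* lost its call without preparation 1. *Birc5*, the fourth passenger subunit, was the exception and the lowest of the list at -0.93. Its ratios were 1.14, -3.97 and 0.05, and the quiescent sample of preparation 2, at 10.64, lay far above the other quiescent samples at 6.55 and 6.63.

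The checkpoint protects securin and cyclin B1 from the APC/C, and securin in turn inhibits separase. The genes of these 3 proteins rose, 3 of 3. The separase inhibitor *Pttg1* (securin) had a ratio of 4.39, *Ccnb1* (cyclin B1) 3.38 and the protease *Espl1* (separase) 3.21. *Ccnb1* read 10.80, 10.72 and 10.61 against 7.62, 7.24 and 7.13, so that its 3 preparations gave nearly the same ratio. Of *Cdc20*, the APC/C subunits and their E2 enzymes, 2 of 16 genes rose, the E2 enzymes *Ube2s* (2.77) and *Ube2c* (2.72). Only 1 of the 2 probes of *Ube2s* was called, against 2 of 2 for *Ube2c*. The 13 measured APC/C subunits had a median ratio of 0.44 and a range of -0.64 (*Anapc10*) to 1.69, and 0 of them were called. The largest ratios among them, *Cdc27* at 1.69 and *Cdc16* at 1.57, missed the rule by little (unadjusted p = 0.0602 and 0.0559 in limma). These 2 genes were called under 7 and 6 of the 14 alternatives. Both ratios were largest in preparation 2 and near 0 in preparation 3, at 1.26, 3.64 and 0.17 for *Cdc27* and 1.55, 3.13 and 0.01 for *Cdc16*. *Cdc20*, the direct target of the checkpoint complex, read 11.33, 11.37 and 11.34 in the replicating samples and 12.35, 12.29 and 10.02 in the quiescent samples. The replicating samples of *Cdc20* were almost equal and the quiescent ones lay on both sides of them, with a ratio of -0.21 (standard error 0.56, 95% confidence interval -1.64 to 1.23).

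No gene of the remaining roles was called with the deposited values and the paired fit. The 7 measured phosphatase genes, whose products silence the checkpoint, had a median ratio of 0.79 (0.19 to 1.67), and the partners *Znf207* of Bub3 and *Tpr* of Mad1 had ratios of 0.18 and 0.08. The 4 measured partners of Mad2l2 had a median of 0.95 (0.80 to 0.98), and their preparations disagreed, with medians of 0.95, 2.09 and -0.31. Some of these genes were called under other settings, *Ppp2r5c* (1.67, unadjusted p = 0.0509) under 6 of the 14 alternatives, *Ppp1cc* and *Rev1* under 3, *Rev3l* under 2 and *Ppp2r5a* and *Znf207* under 1. The ratio of *Ppp2r5c* was also largest in preparation 2, at 0.99, 3.54 and 0.49 in preparations 1, 2 and 3. The count of the whole list was 20 without preparation 1, where 1.14% of all probes were called higher, and 31 without preparation 3, where 11.2% were.

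**Figure D3:**
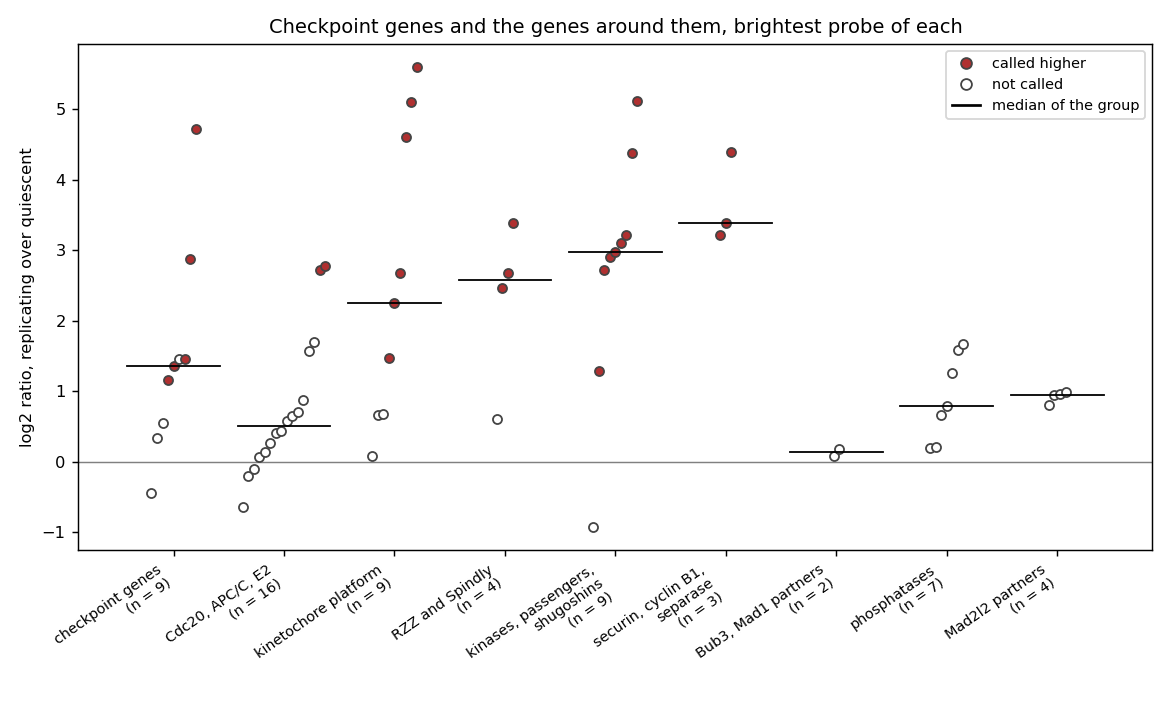
Log2 ratio of replicating over quiescent samples (log2 units) for the 9 checkpoint genes and the 54 measured genes of the wider list, grouped by role, 1 point per gene, with filled points for the genes called higher. The kinases and passengers, the securin, cyclin B1 and separase genes and the kinetochore platform lie mostly above 2, the APC/C subunits lie between -0.64 and 1.69, and the phosphatase genes lie between 0.19 and 1.67.

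Promoters of the 9 genes were read for letters that often occur near mitotic genes, in windows of 300 bases (250 before and 50 after the start site) from RefSeq on the assembly GRCr8, which differs from the build of the probes. The motifs were the cell cycle homology region (CHR, TTTGAA or TTCGAA), the CCAAT box (CCAAT) and an E2F site (TTTCCCGC, TTTCGCGC, TTTGCCGC or TTTGGCGC), each on both strands (TTCGAA reads the same on both). The 250 bases before the start are printed, 5′ to 3′, for the 2 genes with the largest ratios, *Bub1* and *Ttk*, for *Trip13*, which rose evenly in the 3 preparations, and for *Bub3*, which did not pass the test. Capitals mark the motif matches.
*Bub1*, chr3:135504922-135505171, minus strand: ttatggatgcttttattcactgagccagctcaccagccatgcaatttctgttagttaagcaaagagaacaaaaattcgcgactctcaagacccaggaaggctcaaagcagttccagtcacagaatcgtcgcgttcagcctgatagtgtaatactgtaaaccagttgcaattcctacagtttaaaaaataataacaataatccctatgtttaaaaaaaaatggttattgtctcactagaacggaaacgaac
*Ttk*, chr8:93634389-93634638, plus strand: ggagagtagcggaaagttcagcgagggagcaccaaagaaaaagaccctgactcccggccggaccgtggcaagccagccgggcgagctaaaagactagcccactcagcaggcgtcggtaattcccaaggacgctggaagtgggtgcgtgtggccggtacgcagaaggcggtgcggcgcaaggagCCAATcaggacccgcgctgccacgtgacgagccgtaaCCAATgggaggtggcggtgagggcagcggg
*Trip13*, chr1:31185450-31185699, plus strand: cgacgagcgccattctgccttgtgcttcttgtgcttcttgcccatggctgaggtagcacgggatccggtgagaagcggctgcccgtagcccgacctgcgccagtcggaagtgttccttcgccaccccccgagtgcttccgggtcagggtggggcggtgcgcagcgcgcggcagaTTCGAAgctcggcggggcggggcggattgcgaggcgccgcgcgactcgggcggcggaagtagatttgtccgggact
*Bub3*, chr1:195760282-195760531, plus strand: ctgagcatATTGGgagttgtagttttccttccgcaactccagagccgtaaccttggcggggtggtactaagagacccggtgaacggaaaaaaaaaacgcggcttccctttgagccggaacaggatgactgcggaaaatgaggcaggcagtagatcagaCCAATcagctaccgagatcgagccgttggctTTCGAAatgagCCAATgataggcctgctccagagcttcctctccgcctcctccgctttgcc
*Bub1*, with the largest ratio, held none of the motifs in this window, nor did *Mad2l1bp*. *Ttk* held CCAAT boxes starting at -67 and -30 from the start site and a CHR match at 5 on the opposite strand, beyond the printed bases. *Trip13* held a CHR match at -76, and *Bub3* held 1 at -61 with CCAAT boxes at -242, -92 and -50. Other CHR matches lay at -225 and -4 in *Bub1b*, at -182 in *Mad1l1* and at 28 in *Mad2l1*, and *Mad2l2* held a CCAAT box at -40 on the opposite strand. In all, 6 of 9 checkpoint windows held a CHR match, against 19.7% of 33469 windows, 3 of 9 a CCAAT box, against 37.5%, and 0 of 9 an E2F match, against 2.14%. A match is a stretch of letters and not a shown binding site, and genes that rose and genes that did not pass both held them.

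**Figure D4:**
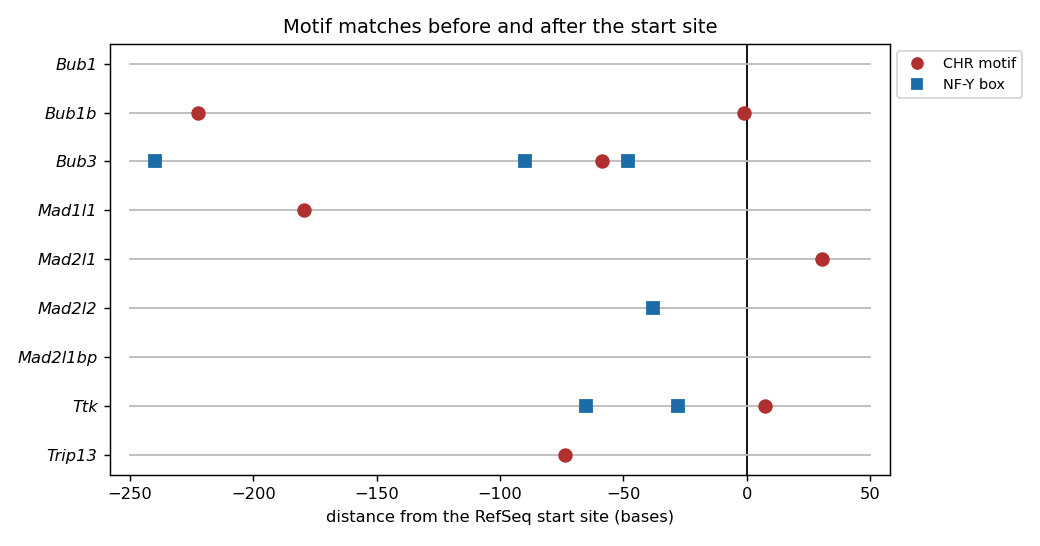
Positions of the CHR matches (circles) and CCAAT boxes (squares, named NF-Y box after the factor that binds them) in the promoter windows of the 9 checkpoint genes (horizontal axis, bases from the RefSeq start site), 1 line per gene. *Bub1* and *Mad2l1bp* hold no match, and *Bub3* holds the most, with 1 CHR match and 3 CCAAT boxes.

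The order of the checkpoint genes depended on the processing of the arrays below its first 2 places, which *Bub1* and *Ttk* held under the 13 alternatives run on single probes. *Bub1* kept ratios of 4.58 to 5.79, *Ttk* of 2.61 to 3.82 and *Trip13* of 1.11 to 2.92. These 3 genes were called under all 14 alternatives run, 1 of which repeats the deposited values. *Bub1b* and *Mad1l1* were not called under all of them. *Mad1l1* was lost under 6 of the 13 alternatives run on single probes and *Bub1b* under 5. *Mad2l1* joined in 5 of the 14. *Bub3* stayed between 0.21 and 0.55, and probe 1 of *Mad2l2* stayed below 0, between -0.73 and -0.29.

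**Figure D5:**
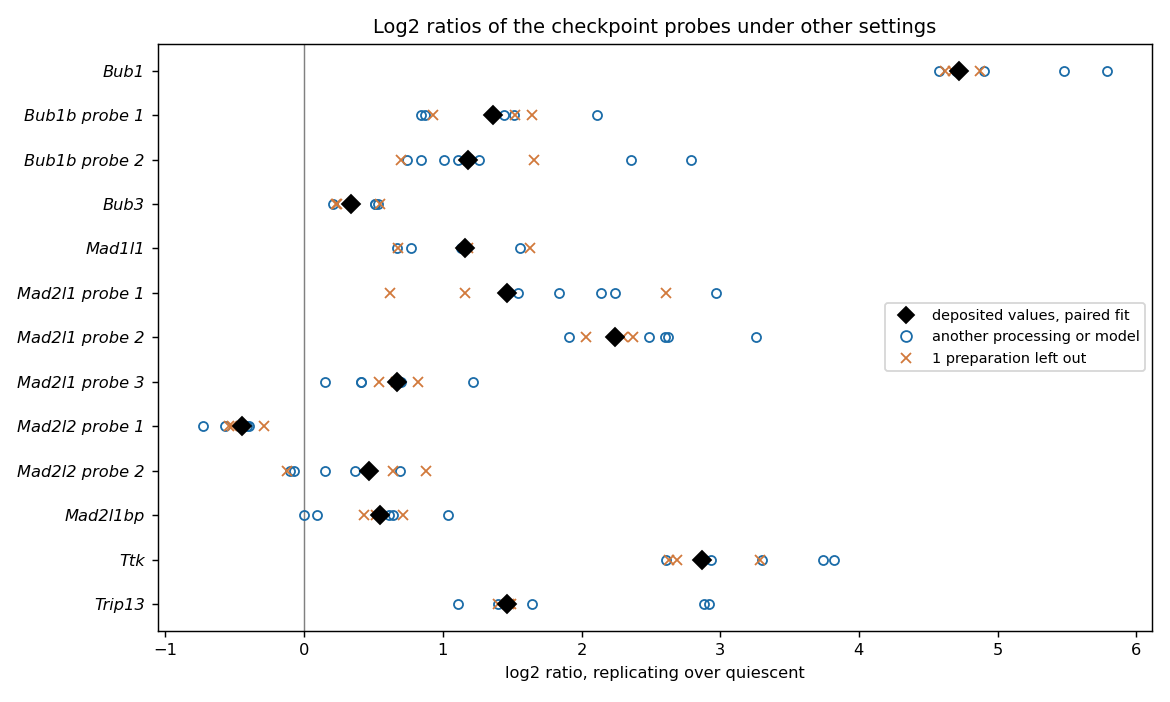
Log2 ratio of each checkpoint probe (horizontal axis, log2 units) from the deposited values (black diamonds), under another processing or model (open circles) and with 1 preparation left out (crosses). *Bub1* and *Ttk* keep ratios of at least 2.61 in every case, while probe 1 of *Mad2l1* ranges from 0.62 to 2.97.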

How the data were processed

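Expression was measured on 6 arrays of 1 colour, 3 of replicating and 3 of quiescent β-cells, grouped by their titles. The authors deposited Feature Extraction 10.7.3.1 intensity values, not normalized between arrays, whose probe coordinates are those of the rat build rn4. The log2 values used here were deposited by the authors as well, 1 per spot, background-corrected by normexp and quantile normalized. Normexp at an offset of 50 with quantile normalization from the intensity values gave the same values (Spearman's rho of 1). Control spots were left out, outlier-marked spots were treated as missing, and spots of a probe were averaged. All 45598 probes were fitted with limma 3.58.1 in R 4.3.3 (lmFit and eBayes), blocked by islet preparation like the study's own paired test, and Benjamini-Hochberg adjustment over all of them; data.table (version 1.17.8) read the files. Labels and methods both give the pairing, with 1 sample of each kind per preparation. Across probes, the 2 arrays of a preparation deviated from their groups' means with correlations of 0.0561, 0.242 and 0.258. Arrays of different preparations gave -0.312 to 0.169, the highest for replicating array 1 with quiescent array 3. The number of arrays limits the precision.

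The members, the gene lists and the tests were chosen with earlier results of these data known, so no p was adjusted over a list. The genes named are all members with all their probes, the genes of the wider list that were called with its extremes, and the 10 genes closest to *Bub1*. The fit was tested on simulated data. Of the 13 probes, 12 matched a transcript of the RefSeq table, the exception being probe 1 of *Mad2l2*; older symbols on the array, such as *Casc5* for *Knl1*, were matched by hand. The files do not say which part of a gene a probe lies in. Alternatives were other offsets, scalings, filters and variance models, no block, the median over probes and each preparation left out.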

Additional observations from a re-analysis of the deposited data

How the results depend on the processing

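Of the 14 alternatives, 1 (normexp at an offset of 50 with quantile normalization) repeated the deposited values, so its results could not differ. The filter for probes well above background and the variance trend changed the p of a probe but not its ratio. Without the block or with outlier spots kept, only probe 2 of *Bub1b* changed its ratio. These settings are included in the counts that follow. *Bub1*, *Ttk* and *Trip13* were called under all 14 alternatives. Over the 13 probes and 13 alternatives, 145 of 169 ratios kept their direction and their side of the threshold. Of the rest, 11 lost the call, 10 gained it and 3 changed sign. All 3 belonged to probe 2 of *Mad2l2*, which read -0.10 with Feature Extraction's processed signal scaled to the 75th percentile, -0.07 with normexp values scaled to the 75th percentile and -0.12 without preparation 2 (-0.12 to 0.88 with 1 preparation left out). These 2 scalings moved the median of all probes to -0.71 and -0.39, so changes there are read against those shifts. The 5 genes called became 3 with the processed signal, and 3 to 5 with 1 preparation left out (3 without preparation 1, where 1.14% of all probes were called higher). The median of 1.36 was 2.11 at an offset of 0, 0.84 with normexp and the 75th percentile, 1.13 with array weights, and 0.93 to 1.40 with 1 preparation left out. The 0 genes past the adjusted p in limma became 2 with normexp and the 75th percentile (719 probes in all), 2 with cyclic loess (204), 1 without the replicate block (99), 1 with a variance trend (61) and 0 to 2 with 1 preparation left out. With array weights 9 of 9 genes passed, as did 24107 of the 45598 probes, more than passed an unadjusted p of 0.05 in the paired fit. Without the block the same 5 genes were called. The wider list gave 20 to 31 genes called, beside 22, and 20 to 31 with 1 preparation left out. The cause of these shifts was not tested. Dim quiescent spots limit the ratios of *Ttk*, *Trip13* and *Kntc1*, and the lowest deposited log2 value was 5.65. Other dim probes also had smaller ratios in the deposited values, at an offset of 50, than at an offset of 0. The ratios were 1.36 and 2.11 for probe 1 of *Bub1b*, 0.55 and 1.04 for *Mad2l1bp*, and 0.67 and 1.22 for probe 3 of *Mad2l1*. *Bub1*, dim in the quiescent samples only (mean of 6.74), likewise had ratios of 4.72 and 5.79. The bright probe of *Bub3* read 0.34 at both offsets. Ratios of probes of unlike brightness are compared with this limit.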
